A study of Mus musculus with 10 samples.

Results

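Whole-liver RNA of old male mice was compared between 4 livers in which hepatocyte Cd44 had been targeted by genome editing and 3 control livers, 7 of the 10 libraries of the series. The 7 were chosen by their labels: the knockout libraries carry a Cd44 knockout label with guide 2 or guide 4, and the controls an old Rosa26 knockout label. All 10 mice received an adeno-associated virus of serotype 8 that carried the small Cas9 of Staphylococcus aureus (saCas9) under TBG, a promoter active in hepatocytes, and a guide RNA under the U6 promoter. The guide was directed at Cd44 in the knockout mice and at Rosa26, a locus commonly used as a neutral site, in the controls. By design all groups thus shared virus, nuclease and an intended cut in the genome, and no cut was measured here. Old mice were given virus at 23 months and their livers were taken at 25 months. Guide 4 was used in knockout replicates 1 and 2, and guide 2 in replicates 3 and 4. The other 3 libraries, from Rosa26 control mice given virus at 7 months and aged 9 months, entered the model as a group of their own and are quoted for a few genes. Livers are numbered within a group as their records are listed, and the numbers pair no livers. The labels do not say how the livers were shared among days or cages, so a difference of day or cage cannot be told apart from one of group. The p-values rest on a spread within groups that was estimated over all 10 libraries, the young livers among them.

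CD44 is a cell surface glycoprotein that binds hyaluronan and osteopontin and is used as a co-receptor by several growth factor receptors. Interleukin 6 acts on hepatocytes through its receptor chain IL6RA and the shared chain gp130 (Il6st), which activate STAT3 and with it the acute phase genes. Hepatocytes line blood spaces walled by sinusoidal endothelial cells, which clear hyaluronan and other ligands with scavenger receptors, and which share the space with Kupffer cells, the resident macrophages, and with stellate cells, which store vitamin A and make matrix when activated. Because TBG drives the nuclease in hepatocytes, genes of these other cells are read here beside the edited cell type and not within it.

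Total counts lay between 15821198 and 21710228 per library, and a floor of 3 counts in a library came to 0.138 to 0.19 CPM, which are counts scaled to the size of the library. Cd44 (chromosome 2, 102811141 to 102901669) measured 14.2, 29.99 and 25.9 CPM in the old controls, listed from replicate 1 to 3, and 18.9, 29.01, 17.6 and 13.1 CPM in the knockouts, listed from replicate 1 to 4. The ranges overlapped and the log2 fold change was -0.25 (SE 0.30), so the level of Cd44 did not separate the labelled groups and all directions given here rest on the labels. By guide, the log2 fold change of Cd44 was -0.60 (SE 0.34) with guide 2 and 0.04 (SE 0.33) with guide 4. The guides differed by -0.64 (SE 0.36, edgeR unadjusted p = 0.107). Whole-liver counts of a gene do not measure the share of hepatocyte alleles that were edited. Hepatocyte markers summed to 82380 to 94090 CPM in the controls and 82590 to 91600 CPM in the knockouts, and no marker of the other 11 cell types examined was at or under 3 counts in all old livers. The controls were the more dispersed group: the median gene had an SD of log2 CPM of 0.32 in control and 0.19 in knockout livers, and 73.7% of genes had the larger SD in the controls. Old control replicate 2 held 264.3 CPM of neutrophil markers against at most 20.9 CPM in any other old liver. Old control replicate 3, whose library name lies outside the run of the other names, had the highest acute phase level, as given below.

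No gene was called. Of 13909 genes tested with edgeR's quasi-likelihood test, 0 had an adjusted p under 0.05 (0% of genes tested) and the smallest adjusted p was 0.744. An unadjusted p under 0.05 was found for 916 genes (6.59%), 357 higher (2.57%) and 559 lower (4.02%) in the knockout livers. Among them 43 were at least 2-fold higher and 94 at least 2-fold lower. The 4 knockout livers lay all above the 3 controls for 395 genes (2.84%) and all below them for 453 (3.26%). DESeq2 called 8 of 13623 genes (0.0587%), which were Lsm1, Ly6d, Mettl7b, Flt4, Scamp5, Egr1, Enho and Serpina1e, and limma voom called 0. Since no gene passed in the edgeR test, genes below are described by their values, their log2 fold change and whether the groups overlapped. The standard error (SE) beside a fold change is its absolute value divided by the square root of the edgeR F statistic. It thus restates the test and is no separate estimate of precision. The share of members in a list is read against these shares of all genes.

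**Figure D1:**
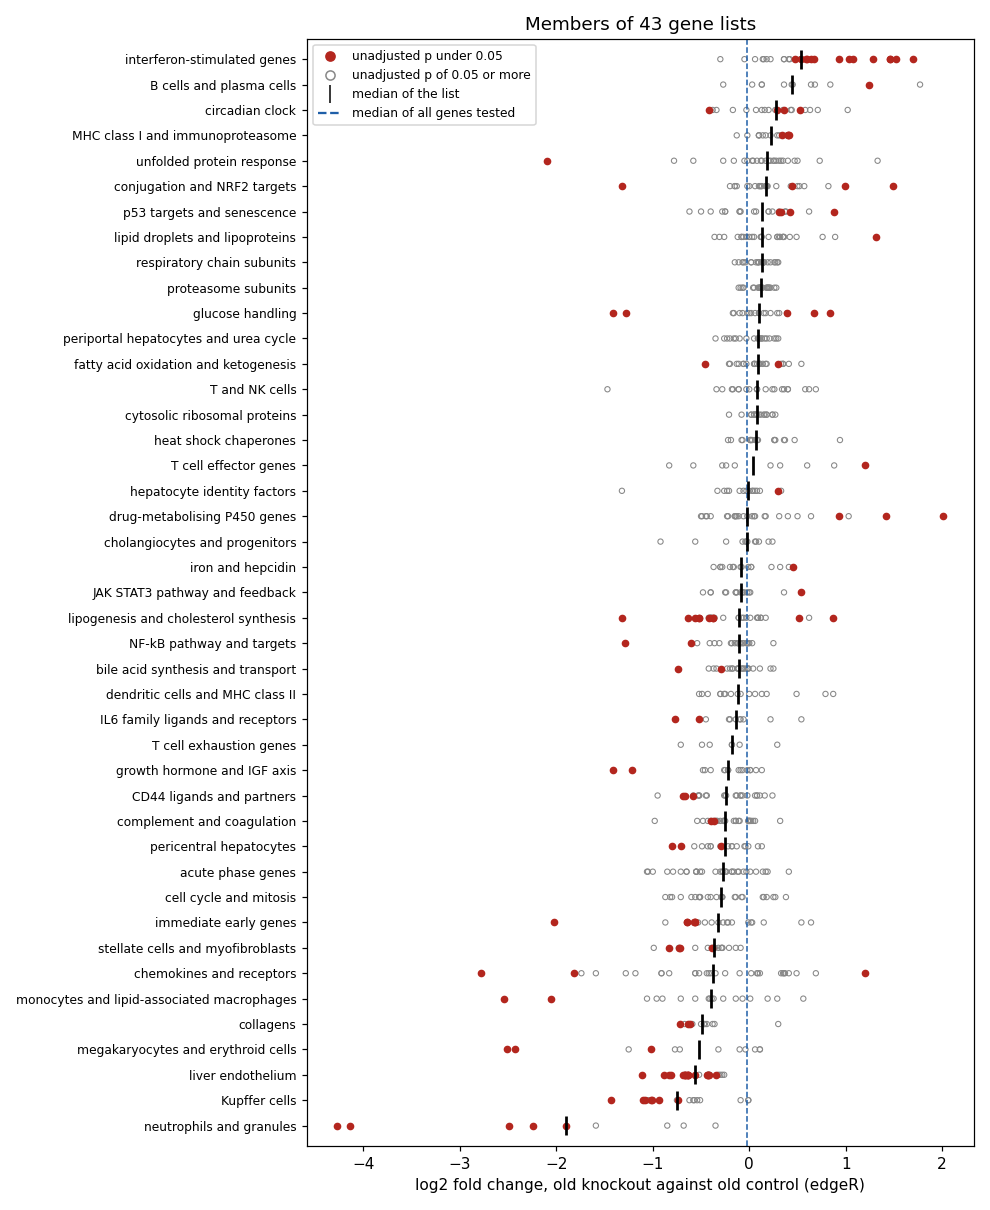
Log2 fold change between old knockout and old control livers (x axis, edgeR) of every tested member of 43 gene lists (rows, ordered by median). Red points have an unadjusted p under 0.05, black marks are list medians and the dashed line is the median of all genes tested, -0.02; all 27 endothelial genes lie below 0 and 27 of 29 interferon-stimulated genes lie above it.

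Endothelial genes were lower in the knockout livers. Of 27 listed genes of liver endothelium, 27 had a negative log2 fold change, with a median of -0.56 against -0.02 over all genes tested. An unadjusted p under 0.05 was reached by 18 of them, all lower, where 4.02% of all genes did so, and the groups did not overlap for 14, where 3.26% of all genes lay lower without overlap. In bulk liver, fewer endothelial cells and less RNA per endothelial cell cannot be told apart.

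Flt4 (chromosome 11, 49609679 to 49652739), which encodes the vascular endothelial growth factor receptor VEGFR3, had the smallest p of all genes lower in the knockout. It was at 42.2, 40.5 and 34.5 CPM in the old controls and 26.4, 25.8, 23.9 and 24.7 CPM in the knockouts. Every knockout liver lay below every control, with means of 39.1 ± 4.03 (SD, n = 3) and 25.2 ± 1.11 CPM (SD, n = 4). The log2 fold change was -0.63 (SE 0.11), and the DESeq2 adjusted p was 0.00282. Young control livers had 20.7, 18.4 and 22.3 CPM.

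The genes of the angiopoietin receptor Tek and of its partner Tie1 were likewise separated. Tie1 (chromosome 4, 118471191 to 118489849) had 16.9, 16.7 and 17.3 CPM in the controls and 10.5, 11.5, 11.3 and 9.28 CPM in the knockouts (log2 fold change -0.67, SE 0.16). Tek (chromosome 4, 94739086 to 94874976) had 12.5, 9.8 and 12.5 CPM and 6.39, 8.03, 6.31 and 5.25 CPM in the same order (log2 fold change -0.83, SE 0.22). In both genes the highest knockout liver was replicate 2 and it stayed below the lowest control. Vwf (chromosome 6, 125552948 to 125686679), the clotting factor carrier made by endothelium of larger vessels, was at 9.68, 12.6 and 17.5 CPM in the controls and 5.81, 6.15, 7.35 and 5.31 CPM in the knockouts. It had the most negative change of the list, -1.11 (SE 0.26).

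The scavenger receptors of sinusoidal endothelium bind hyaluronan, as CD44 does. Stab2 (chromosome 10, 86841194 to 87008038), the main hyaluronan clearance receptor, had 55.5, 44.6 and 47.2 CPM in the controls and 30.9, 37.6, 26.8 and 26.3 CPM in the knockouts, without overlap (log2 fold change -0.69, SE 0.20). Stab1 (chromosome 14, 31139017 to 31168651) had 98.5, 68.5 and 51.1 CPM and 42.2, 54.2, 41.5 and 44.2 CPM, with knockout replicate 2 above old control replicate 3 (log2 fold change -0.67, SE 0.20). Lyve1, a hyaluronan receptor of sinusoidal and lymphatic vessels, had a log2 fold change of -0.52 and an SE of 0.40.

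General vessel markers had negative log2 fold changes as well. Pecam1 (chromosome 11, 106654213 to 106715281), an adhesion molecule of endothelial junctions, had 22.6, 23.98 and 31.3 CPM in the controls and 17.4, 19.3, 17.3 and 13.1 CPM in the knockouts, all below the controls (log2 fold change -0.63, SE 0.19). Kdr (chromosome 5, 75932827 to 75979072), the main receptor of vascular endothelial growth factor, had 30.03, 25.6 and 34.9 CPM against 22.7, 24.3, 24.9 and 18.03 CPM (log2 fold change -0.42, SE 0.17). Cdh5 (chromosome 8, 104101613 to 104144504), the cadherin of endothelial junctions, had 27.2, 52.1 and 42.6 CPM against 24.8, 29.4, 20.7 and 17.9 CPM, and here knockout replicate 2 exceeded old control replicate 1 (log2 fold change -0.81, SE 0.23). The ligand genes that endothelium sends to hepatocytes were mixed in strength: Rspo3 was at -0.56 (SE 0.18), while Wnt2 at -0.67 and Bmp2 at -0.30 had SEs of 0.41 and 0.22. Members with the smallest differences were Robo4 at -0.26 and Ehd3 at -0.28 on the log2 scale.

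Taken over the list, the median member stood at 0.12, -0.03 and -0.02 in old control replicates 1 to 3, as log2 CPM relative to the mean of the old controls. It stood at -0.50, -0.37, -0.52 and -0.73 in knockout replicates 1 to 4, so that no knockout liver reached a control. The median log2 fold change was -0.63 for guide 2 and -0.50 for guide 4, which are compared with the same 3 controls. With guide 2, 17 members were lower at an unadjusted p under 0.05 (4.13% of all genes), and with guide 4, 12 were (2.08% of all genes). Leaving out 1 liver at a time gave 14 to 21 lower members, the lowest without old control replicate 1, where 9.63% of all genes were lower. The young control livers stood at -0.76, -1.05 and -0.42 on the same scale. Plxnd1 (chromosome 6, 115954811 to 115995339), a semaphorin receptor of vessels that is on no list, was also among the 12 lower genes of smallest p, with 46.1, 51.5 and 34.4 CPM in the controls and 23.1, 32.2, 25.6 and 29.4 CPM in the knockouts (log2 fold change -0.67, SE 0.16). Aqp1 (chromosome 6, 55336299 to 55348555), a water channel of vessels and bile ducts, had 89.6, 83.5 and 104 CPM against 50.96, 63.6, 45.9 and 34.5 CPM (log2 fold change -0.92, SE 0.21). Both genes were lower in every knockout liver than in every control, as their choice required. Cholangiocyte genes gave 0 of 12 members at p under 0.05 in either direction.

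**Figure D2:**
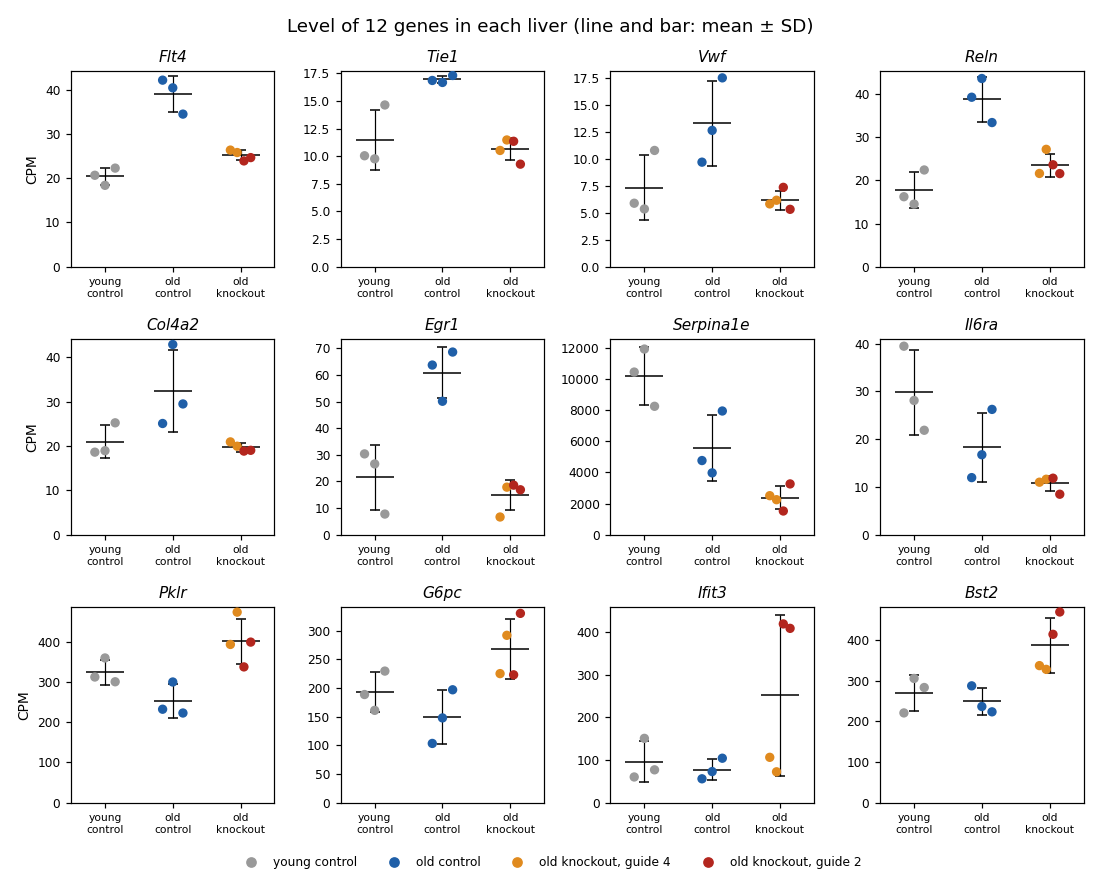
CPM of 12 genes (y axis, from 0) in young control, old control and old knockout livers, 1 point per liver with the mean and SD as line and bar; knockout points are coloured by guide. Knockout livers do not overlap the old controls for 11 of these genes, and for Ifit3 knockout replicate 2, at 72.3 CPM, lies within the control range.

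Stellate and matrix genes pointed the same way, with fewer members separated. All 20 genes of stellate cells and myofibroblasts had a negative log2 fold change, with a median of -0.37. An unadjusted p under 0.05 was reached by 4 of them, where 4.02% of all genes were lower at that p. Reln (chromosome 5, 21884454 to 22344705), a secreted glycoprotein made in liver by stellate cells, had 39.3, 43.7 and 33.4 CPM in the controls and 21.6, 27.2, 23.6 and 21.6 CPM in the knockouts. Every knockout liver lay below the controls, with a log2 fold change of -0.72 (SE 0.16). Lum and Dcn, which encode small proteoglycans that organise collagen fibrils, had log2 fold changes of -0.83 (SE 0.29) and -0.39 (SE 0.17), both without overlap. Loxl1, a collagen and elastin crosslinking enzyme, was at -0.73 (SE 0.30) and its groups overlapped. The defining stellate markers Lrat, Des and Colec11 were at -0.09, -0.36 and -0.14, with SEs of 0.24, 0.43 and 0.26. Leaving out old control replicate 2 gave 1 lower stellate gene at p under 0.05, where 3.04% of all genes were lower.

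Among 12 collagen genes, 11 had a negative log2 fold change, the median was -0.49 and 3 reached an unadjusted p under 0.05. Those 3 were lower, as were 4.02% of all genes. Col4a2 (chromosome 8, 11312805 to 11449287), a chain of basement membrane collagen, had 25.1, 42.9 and 29.5 CPM in the controls and 20.9, 19.9, 18.8 and 19.02 CPM in the knockouts. The knockouts lay in a narrow band below all controls (log2 fold change -0.72, SE 0.18). Col14a1, which binds fibrils, had 33.3, 72.7 and 34.1 CPM in the controls and 28.9, 29.6, 32.8 and 28.2 CPM in the knockouts, again without overlap, although old control replicate 2 carried most of the difference (log2 fold change -0.64, SE 0.26). The fibrillar genes Col1a1, Col1a2 and Col3a1 were at -0.59, -0.47 and -0.38 with SEs of 0.37, 0.35 and 0.30. By liver, the median collagen stood at -0.05, 0.41 and -0.36 in the controls and between -0.51 and -0.40 in the knockouts. Without old control replicate 2, 1 collagen was lower at p under 0.05 (3.04% of all genes) and the median was -0.20.

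Other genes led the ranking without belonging to a cell type list. Egr1, an immediate early transcription factor, had the largest difference among the 12 lower genes of smallest p, with 63.8, 50.1 and 68.6 CPM in the controls and 6.62, 17.8, 18.6 and 16.9 CPM in the knockouts. Knockout replicate 1 was the lowest and the highest knockout liver was still far below the lowest control. The log2 fold change was -2.02 (SE 0.41), and the DESeq2 adjusted p was 0.00586. Young control livers had 30.4, 26.6 and 7.73 CPM. Of 21 immediate early genes, 6 were lower at an unadjusted p under 0.05 (4.02% of all genes) and none was higher. The list median was -0.32. Zfp36, which encodes a protein that hastens the decay of inflammatory messenger RNA, had 125, 106 and 107 CPM in the controls and 84.2, 65.8, 92.4 and 63.5 CPM in the knockouts (log2 fold change -0.56, SE 0.17). Junb, a subunit of the AP-1 factor, had 56.5, 49 and 58.1 CPM against 32.3, 41.7, 43.2 and 29.8 CPM (log2 fold change -0.57, SE 0.18). The groups did not overlap in either gene. The AP-1 genes Fos and Jun were at -0.65 (SE 0.24) and -0.56 (SE 0.25), and Ier3 at -0.65 (SE 0.27). Other members did not share the direction: Dusp1, a phosphatase of the MAP kinases, was at 0.54 (SE 0.25) and Egr3 at 0.64 (SE 0.47). By liver, knockout replicate 2 stood at 0.04 for the median member, level with the controls at 0.00, 0.10 and -0.13, while knockout replicates 1, 3 and 4 stood at -0.63, -0.27 and -0.66.

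Serpina1e (chromosome 12, 103946931 to 103956897), 1 of several near-identical genes for the protease inhibitor alpha-1-antitrypsin, had 4766, 3973 and 7954 CPM in the controls and 2505, 2247, 1519 and 3262 CPM in the knockouts. The young controls, at 10460, 11940 and 8257 CPM, lay above all old livers. All knockouts lay below all old controls, with a log2 fold change of -1.22 (SE 0.29), but reads can be divided wrongly among the copies. Its relative Serpina1a was at -0.23 (SE 0.17). Scamp5 (chromosome 9, 57441327 to 57468060), a membrane trafficking protein, had 19.1, 20.8 and 21.6 CPM in the controls and 13.4, 14.9, 11.3 and 11.7 CPM in the knockouts (log2 fold change -0.67, SE 0.13). Enho (chromosome 4, 41638144 to 41640302), which encodes the secreted peptide adropin, had 17.1, 15.1 and 19.1 CPM against 6.86, 4.23, 3.203 and 8.17 CPM (log2 fold change -1.61, SE 0.36). Inhbb (chromosome 1, 119415463 to 119422248), the beta B chain of activin, had 2.998, 3.56 and 6.15 CPM against 1.69, 2.18, 1.601 and 1.69 CPM (log2 fold change -1.24, SE 0.27). The groups did not overlap in Scamp5, Enho or Inhbb, which was a condition of their choice. Tspan7, a tetraspanin, was at -0.63 (SE 0.15), and Calml4, a calmodulin-like gene with at most 1.64 CPM, at -1.22 (SE 0.28). Among genes chosen for the size of the difference, Ache, Mmrn1 and Kcnj16 were at -1.81, -1.77 and -1.74 on the log2 scale, with control means of 1.45, 1.04 and 1.46 CPM. Ache had 1.03, 2.55 and 0.763 CPM in the controls and 0.465, 0.349, 0.377 and 0.467 CPM in the knockouts, and Mmrn1 0.491, 1.92 and 0.716 CPM and 0.116, 0.305, 0.424 and 0.3501 CPM. Old control replicate 2 was the highest liver in both, and without it their log2 fold changes were -1.11 and -0.98. The value of Mmrn1 in knockout replicate 1 lay under the floor of 3 counts, which is 0.182 CPM in that library.

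On the higher side, Lsm1 (chromosome 8, 25785318 to 25803975), part of the complex that directs messenger RNA to decapping, had the smallest p. It was at 10.5, 9.89 and 9.02 CPM in the controls and 13.7, 13.6, 14.8 and 16.1 CPM in the knockouts, without overlap (log2 fold change 0.57, SE 0.12, DESeq2 adjusted p = 0.0488). Young control livers had 14.8, 14.1 and 13.9 CPM. Ly6d (chromosome 15, 74762056 to 74763567), a lipid-anchored surface protein, had 2.02, 2.33 and 3.48 CPM in the controls and 6.04, 6.59, 28.97 and 11.8 CPM in the knockouts. Guide 2 livers were the highest, and the log2 fold change was 2.36 (SE 0.52). Plekha8, a glycolipid transfer protein of the Golgi, had 18.7, 17.5 and 20.5 CPM against 27.6, 25.4, 24.8 and 25.9 CPM (log2 fold change 0.46, SE 0.10). Hectd2, of the family of HECT ubiquitin ligases, had 42.9, 51.3 and 46.5 CPM against 69.3, 78.3, 91.2 and 60.7 CPM (log2 fold change 0.67, SE 0.15). The groups did not overlap for either gene, nor for Coq10b, a coenzyme Q binding protein, at 0.65 (SE 0.16), or Chpt1, an enzyme of phosphatidylcholine synthesis, at 0.59 (SE 0.15), whose span overlaps that of Sycp3, so that reads may be shared. With Pklr, described with glucose handling, Tmie, Slc35g1, Tkfc, 1500017E21Rik and Ttc23 completed the 12 higher genes of smallest p, with log2 fold changes of 0.53, 0.76, 0.59, 0.64 and 0.46. The symbol 1500017E21Rik, which has no position here, ranked the old livers in the same order as Hectd2. It had 42.96, 56.2 and 53.3 CPM in the controls and 73.9, 81.4, 98.6 and 62.4 CPM in the knockouts. Whether the 2 symbols share reads was not tested. Tkfc phosphorylates dihydroxyacetone and glyceraldehyde, as in fructose breakdown, and had 317, 327 and 307 CPM in the controls and 535, 499, 377 and 498 CPM in the knockouts. Mettl7b, a hepatocyte methyltransferase-like protein of lipid droplets and membranes, had 669, 602 and 583 CPM in the controls and 818, 778, 830.3 and 775 CPM in the knockouts (log2 fold change 0.37, DESeq2 adjusted p = 0.0313). Neither Tkfc nor Mettl7b overlapped between groups.

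Interferon-stimulated genes were higher, mostly in the guide 2 livers. Type I interferons act through the factor ISGF3, which binds a repeated GAAA element in the promoters of its targets. Promoters of 250 bases before to 50 after the start were taken from RefSeq (GRCm38.p6) for 20 of the 29 listed genes, and the motif GAAA, any 2 bases, GAAA was found on either strand in 14 of them (70%). The same motif was found in 430 of 10682 promoters of genes tested (4.03%), in 3 of 13 promoters of the MHC class I list (23.1%), in 2 of 26 of the acute phase list (7.69%) and in 0 of 17 of the endothelial list. A match describes letters and not a bound site. The promoters of Ifit3 and Igtp, which lie on the plus strand, and of Bst2, on the minus strand, are shown because these genes differ in how far the increase was shared by both guides; capitals mark the motif.
Ifit3, chr19:34583279-34583578: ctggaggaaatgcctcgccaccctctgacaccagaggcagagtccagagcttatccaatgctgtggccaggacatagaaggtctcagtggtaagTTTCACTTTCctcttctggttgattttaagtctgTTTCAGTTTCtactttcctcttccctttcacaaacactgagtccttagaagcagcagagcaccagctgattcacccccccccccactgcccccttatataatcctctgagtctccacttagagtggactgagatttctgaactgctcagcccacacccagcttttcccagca
Bst2, chr8:71537423-71537722: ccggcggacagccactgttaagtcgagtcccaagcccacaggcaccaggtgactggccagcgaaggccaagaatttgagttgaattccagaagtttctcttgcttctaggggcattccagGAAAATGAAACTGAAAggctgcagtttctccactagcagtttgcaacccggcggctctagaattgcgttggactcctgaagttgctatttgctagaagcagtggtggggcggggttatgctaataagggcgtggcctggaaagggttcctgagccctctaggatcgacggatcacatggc
Igtp, chr11:58199306-58199605: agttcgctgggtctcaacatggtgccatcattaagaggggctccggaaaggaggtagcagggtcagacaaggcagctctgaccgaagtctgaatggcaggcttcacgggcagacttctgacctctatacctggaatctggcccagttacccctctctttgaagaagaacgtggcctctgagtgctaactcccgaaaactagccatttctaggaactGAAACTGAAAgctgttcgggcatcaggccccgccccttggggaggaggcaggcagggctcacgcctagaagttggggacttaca

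Of these 29 genes, 27 had a positive log2 fold change, with a median of 0.54 against -0.02 over all genes. An unadjusted p under 0.05 was reached by 14, all higher, where 2.57% of all genes did so. The groups did not overlap for 2 of the 29, Bst2 and Mx1, where 2.84% of all genes lay higher without overlap. Ifit3, a cytosolic antiviral protein, had 55.9, 72.9 and 104 CPM in the controls, 106 and 72.3 CPM in the guide 4 livers and 419 and 409 CPM in the guide 2 livers. The guide 4 livers lay around the controls and the guide 2 livers far above them. The log2 fold change was 1.7 (SE 0.60), made up of 2.41 with guide 2 and 0.20 with guide 4, and the direct test of guide 2 against guide 4 gave 2.21 (SE 0.43, edgeR adjusted p = 0.25). Mx1 (chromosome 16, 97447035 to 97462906), an antiviral GTPase, had 11.6, 11.7 and 10.1 CPM in the controls, 14.3 and 12.3 CPM in the guide 4 livers and 42.8 and 58.8 CPM in the guide 2 livers. Its log2 fold changes were 2.19 with guide 2 and 0.26 with guide 4, and the difference between guides was 1.93 (edgeR adjusted p = 0.281).

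Bst2, the tetherin that holds virus particles at the cell surface, had 288, 237 and 224 CPM in the controls and 338, 328, 415 and 469.6 CPM in the knockouts. Every knockout liver lay above every control, with a log2 fold change of 0.64 (SE 0.17), 0.83 with guide 2 and 0.42 with guide 4. Igtp, an interferon gamma inducible GTPase, had 89.6, 121 and 173 CPM in the controls and 191, 166, 210.1 and 207 CPM in the knockouts. Old control replicate 3 exceeded 1 knockout liver, and the log2 fold change was 0.60 (SE 0.22). Isg15, Oasl2 and Rsad2 were at 1.28, 1.46 and 1.46 with SEs of 0.47, 0.54 and 0.59. The guide 2 values of these 3 genes were 1.68, 2.16 and 2.15, and the guide 4 values 0.71, 0.05 and 0.11. Among transcription factors of the pathway, Irf7 was at 0.59 (SE 0.23), Stat2 at 0.18 (SE 0.20) and Irf9 at 0.06 (SE 0.11). Gbp2 and Gbp4 were the 2 members below 0, at -0.30 and -0.05.

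Over the list, the median member stood at -0.38, -0.07 and 0.35 in the controls, at 0.39 and -0.04 with guide 4 and at 0.79 and 0.88 with guide 2. Old control replicate 3 thus lay above knockout replicate 2. With guide 2, 17 of the 29 were higher at p under 0.05 (2.91% of all genes), and with guide 4, 1 was (1.83% of all genes), against the same controls. In the direct comparison 10 were higher with guide 2 than with guide 4 at p under 0.05 (2.15% of all genes). The count of higher members was 19 without old control replicate 3 (4.17% of all genes), 5 without replicate 2 (1.84% of all genes) and 4 without replicate 1, although 8.37% of all genes were then higher. It was 5 and 3 without knockout replicates 3 and 4, the guide 2 livers, where 2.03% and 1.37% of all genes were higher. The count was 14 and 17 without knockout replicates 1 and 2, where 2.07% and 2.55% of all genes were higher.

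**Figure D3:**
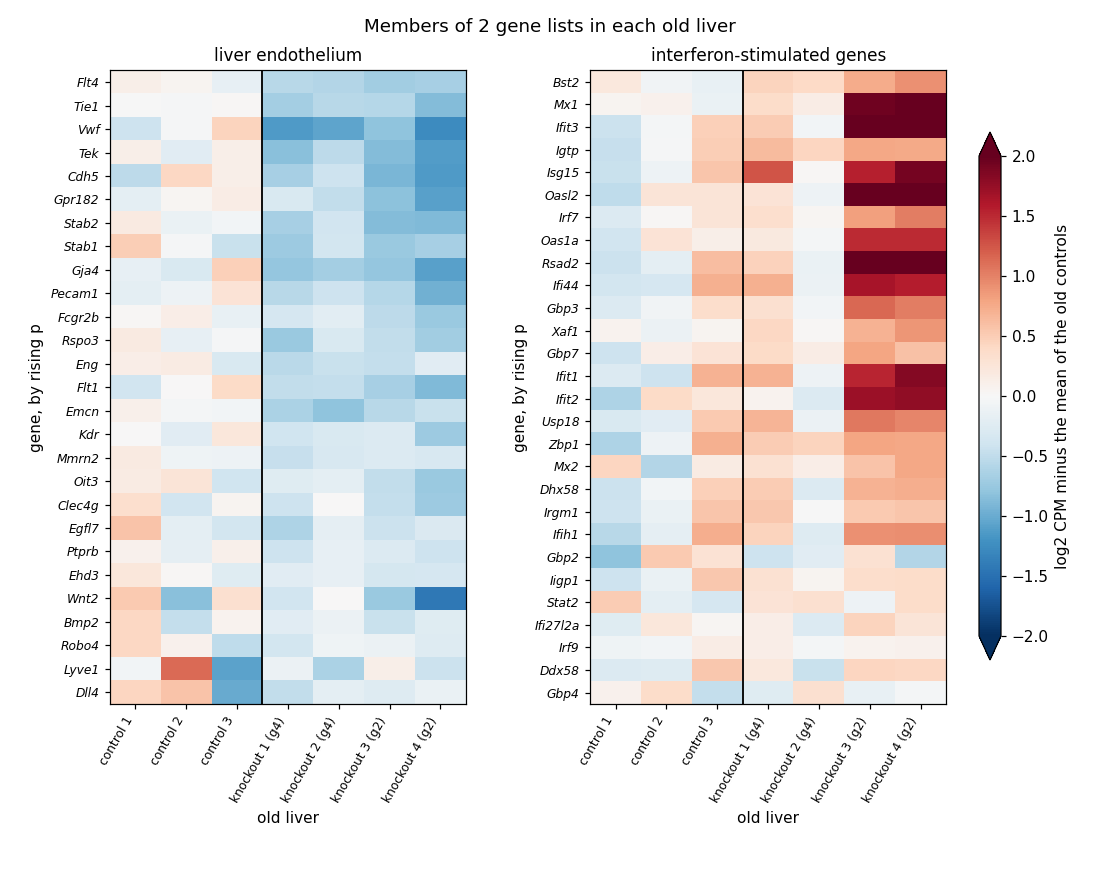
Log2 CPM of each gene in each old liver minus the mean of the old controls (colour, saturated at 2 in either direction) for the endothelial list and the interferon-stimulated list (1 member not shown), genes ordered by p. Blue fills the 4 knockout columns of the endothelial panel apart from 3 cells (Lyve1 in knockout replicate 3, Clec4g and Wnt2 in replicate 2) that lie above the control mean, while red is deepest in the guide 2 columns of the other.

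The MHC class I molecules display peptides to CD8 T cells, and their genes also respond to interferon. Of 15 genes of MHC class I and the immunoproteasome, 13 had a positive log2 fold change and the median was 0.22. An unadjusted p under 0.05 was reached by 4, all higher (2.57% of all genes). H2-K1 (chromosome 17, 33996012 to 34000619), a classical class I heavy chain, had 1955, 2035 and 1639 CPM in the controls and 2214, 2188, 2790 and 2779 CPM in the knockouts, without overlap (log2 fold change 0.41, SE 0.15). B2m (chromosome 2, 122147687 to 122153082), the light chain, had 3230, 3121 and 2766 CPM against 3831, 3655, 3767 and 4178 CPM, again without overlap (log2 fold change 0.34, SE 0.16). H2-T23 and H2-D1 were at 0.40 (SE 0.17) and 0.40 (SE 0.18), where reads of the near-identical H2 genes can be divided wrongly. Guide 2 gave a median of 0.38 with 7 members higher at p under 0.05 (2.91% of all genes). Guide 4 gave a median of 0.12 with 0 such members (1.83% of all genes). The count was 0 without knockout replicate 3 or 4, the guide 2 livers (2.03% and 1.37% of all genes). It was 1 without old control replicate 3 (4.17% of all genes). Class II and dendritic cell genes had a median of -0.12 with 0 of 17 members at p under 0.05. Without old control replicate 2 the median was 0.71 with 4 members higher (1.84% of all genes), and with limma voom it was 0.14.

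Kupffer cell genes were lower on average, and the difference rested on the controls. All 18 had a negative log2 fold change and the median was -0.75. At an unadjusted p under 0.05, 7 were lower (4.02% of all genes), but the groups did not separate for any of the 18. Clec4f (chromosome 6, 83644542 to 83656116), a lectin specific to Kupffer cells, had 127, 432 and 159.8 CPM in the controls and 106, 174, 102 and 91.6 CPM in the knockouts. Vsig4 (chromosome X, 96247201 to 96293438), a complement receptor, had 29.1, 182 and 73.1 CPM and 31.9, 54.2, 28.9 and 25.2 CPM, and Csf1r, the receptor of the macrophage growth factor, 52.05, 197 and 125 CPM and 50.5, 89.4, 52.8 and 38.9 CPM. In each of these 3 genes replicate 2 was the highest control and replicate 1 lay within the knockout range. The log2 fold changes were -1.02, -1.43 and -1.1, with SEs of 0.37, 0.47 and 0.38. Timd4, a marker of long-resident Kupffer cells, was at -1.05 (SE 0.63) and turned to 0.09 without old control replicate 2. By liver the median member stood at -0.90, 0.85 and -0.01 in the controls and between -0.83 and -0.20 in the knockouts. Without old control replicate 2, 0 of the 18 were lower at p under 0.05 (3.04% of all genes). Without replicate 3, 5 were (7.17% of all genes), and without replicate 1, 14 were (9.63% of all genes).

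Neutrophil, monocyte and platelet genes depended on old control replicate 2 still more. Of 9 neutrophil genes, 9 had a negative log2 fold change with a median of -1.90. At an unadjusted p under 0.05, 5 were lower (4.02% of all genes). Ngp, a granule protein, had 0.541, 63 and 0.572 CPM in the controls and 0.407, 0.567, 2.97 and 0.3501 CPM in the knockouts, and Mpo, the peroxidase of granules, 0.246, 31.6 and 0.668 CPM and 0.116, 0.4799, 1.37 and 0.408 CPM. Without replicate 2 their log2 fold changes turned from -4.27 and -4.14 to 0.96 and 0.40, and 0 neutrophil genes were lower at p under 0.05 (3.04% of all genes). S100a8, which encodes a calcium-binding alarmin, had 5.85, 62.3 and 5.77 CPM in the controls and 2.499, 5.28, 6.69 and 2.98 CPM in the knockouts. The platelet chemokines Pf4 and Ppbp had 2.16, 50.6 and 1.05 CPM and 2.11, 27.5 and 2.15 CPM in the controls, and 1.51, 7.897, 1.84 and 1.87 CPM and 1.34, 2.57, 1.98 and 1.46 CPM in the knockouts. Trem2, a receptor of lipid-associated macrophages, had 2.9, 35.9 and 2.05 CPM against 1.45, 6.501, 1.79 and 3.27 CPM. Haemoglobin genes did not share this: Hbb-bs was at 0.06 and Hba-a1 at 0.11. Vcam1, an adhesion molecule induced by NF-kB, and Hmox1, the haem oxygenase, had 18.1, 125 and 23.7 CPM and 21.6, 159 and 45.3 CPM in the controls, where replicate 2 again stood out, and 18.4, 25.7, 26.1 and 20.8 CPM and 24.99, 39.2, 33.7 and 23.2 CPM in the knockouts.

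Few chemokine genes reached an unadjusted p under 0.05, near the shares of all genes. Of 30 genes of chemokines and their receptors, 1 was higher (2.57% of all genes) and 2 were lower (4.02%), with a median of -0.38. The list depended on single livers. Without old control replicate 1, 8 members were lower (9.63% of all genes), and without replicate 3, 10 were (7.17%). Without knockout replicate 2, 7 were lower, as were 617 of 13828 genes tested. Without old control replicate 2 the median was 0.16 and 3 were higher (1.84% of all genes). Ccl6, a macrophage and neutrophil chemokine, had 10.03, 64.5 and 71.5 CPM in the controls and 11.1, 19.8, 13.99 and 10.2 CPM in the knockouts. Old control replicate 1 was lower than every knockout liver and the other controls were higher, and the log2 fold change was -1.82 (SE 0.49). Without that liver Ccl6 was 1 of 3 genes called by edgeR, at -2.30, with Siglec1, a macrophage sialic acid receptor, at -1.43 and Sycp3, a protein of meiotic chromosomes, at 1.39. The annotated span of Sycp3 overlaps that of Chpt1, a gene with higher values in the knockouts, and reads of the shared stretch cannot be told apart where strand is not used. Cxcl13, the B cell attracting chemokine, had 1.72, 102 and 47.3 CPM in the controls and 3.196, 22.8, 1.37 and 1.34 CPM in the knockouts. Its range overlapped widely (log2 fold change -2.78, SE 1.1). Ccl5, made by T and NK cells, had 6.93, 16.4 and 2.67 CPM in the controls, 7.67 and 16.5 CPM in the guide 4 livers and 25.9 and 29.9 CPM in the guide 2 livers (log2 fold change 1.2, SE 0.54). Of 22 genes of the NF-kB pathway and its targets, 0 were higher and 2 were lower at p under 0.05 (4.02% of all genes). The 2 were Il1a at -0.60 and Vcam1 at -1.29.

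**Figure D4:**
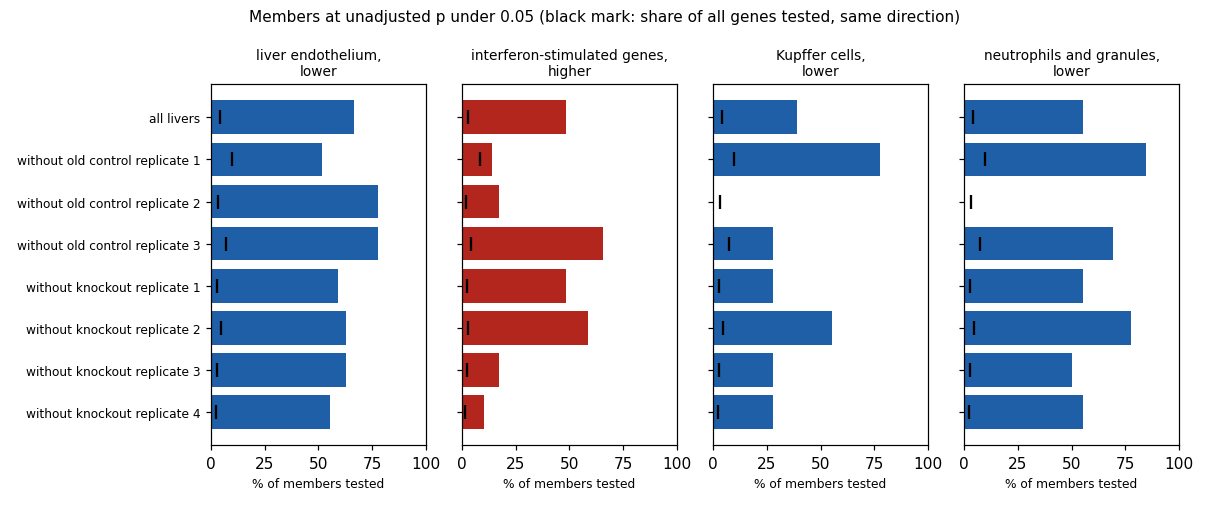
Share of tested members at an unadjusted p under 0.05 (x axis, percent) for 4 gene lists with all livers and with each old liver left out in turn (rows). The black mark is the share of all genes tested in the same direction; the count of endothelial genes at that p lies between 14 and 21 with a liver left out, while the Kupffer and neutrophil shares are 0 without old control replicate 2.

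The interleukin 6 pathway was examined because the study concerns its signalling in the aged liver. Of 11 genes of the interleukin 6 family and its receptors, 2 were lower at an unadjusted p under 0.05 (4.02% of all genes) and 0 were higher. The median was -0.14. Without old control replicate 3, 0 were lower (7.17% of all genes). Without replicate 1 or 2, 3 were (9.63% and 3.04% of all genes). Il6ra (chromosome 3, 89869324 to 89913196) had 11.9, 16.7 and 26.2 CPM in the controls and 10.98, 11.6, 11.8 and 8.46 CPM in the knockouts. The groups did not overlap, but their nearest values, 11.9 and 11.8 CPM, were close, and old control replicate 3 was the highest old liver. The young controls had 39.5, 28.1 and 21.9 CPM. Osmr (chromosome 15, 6813568 to 6874968), the oncostatin M receptor chain that pairs with gp130, had 7.32, 6.66 and 8.01 CPM in the controls and 3.78, 5.41, 6.41 and 4.84 CPM in the knockouts, all lower (log2 fold change -0.52, SE 0.20). Lifr, the receptor of leukaemia inhibitory factor, was at -0.20 (SE 0.26), and the ligand gene Cntf at 0.54 (SE 0.33). Among 17 genes of the JAK and STAT3 pathway and its feedback, Socs1 was higher at 0.54 (SE 0.24), with 1.57, 1.32 and 1.29 CPM in the controls and 2.21, 2.31, 1.74 and 1.87 CPM in the knockouts, and 0 were lower at p under 0.05. Socs3, the feedback inhibitor that STAT3 induces, had 15.3, 13.5 and 30.9 CPM in the controls and 11.4, 35.8, 15.3 and 9.86 CPM in the knockouts, of which replicate 2 exceeded all controls. Its log2 fold change was -0.13 (SE 0.43). Jak1 and Jak2 were at -0.14 and 0.00 and Stat5b at -0.25, with SEs of 0.12, 0.13 and 0.12.

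Acute phase genes had a median of -0.27, and 0 of 33 reached an unadjusted p under 0.05 in either direction. The median member stood at -0.56, -0.19 and 0.83 in old control replicates 1 to 3, so the controls spanned a wider range than the knockouts, at -0.11, 0.31, -0.30 and -0.66. The list median was 0.22 without old control replicate 3. Without replicate 1 it was -0.51 with 8 members lower at p under 0.05, where 9.63% of all genes were lower. Guide 2 gave a median of -0.60 with 8 members lower at p under 0.05 (4.13% of all genes). Guide 4 gave a median of -0.01 with 1 such member (2.08% of all genes). C3, the central complement protein, had 3382, 5093 and 12360 CPM in the controls and 4563, 4529, 4551 and 3382 CPM in the knockouts, and Itih3, a hyaluronan-binding serum protein, 891, 801 and 2003 CPM and 887, 1074, 655 and 524 CPM. In both, old control replicate 3 was the highest liver. Among 30 complement and coagulation genes, C6 at -0.40 (SE 0.17) and F11 at -0.37 (SE 0.17) were lower at p under 0.05 and 0 were higher. That is near the share of all genes, of which 4.02% were lower. Without old control replicate 3, 0 were lower (7.17% of all genes) and the list median was 0.08. Without replicate 1, 12 were lower (9.63% of all genes).

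Among 25 genes that bind CD44, share its ligands or act on it, the median was -0.24. At an unadjusted p under 0.05, 0 were higher and 3 were lower (4.02% of all genes). They were Stab1, Stab2 and Tmem2, a cell surface protein reported to degrade hyaluronan, which had 13.4, 12.4 and 16.7 CPM in the controls and 10.6, 10.1, 9.51 and 7.59 CPM in the knockouts (log2 fold change -0.58, SE 0.16). Stab1 and Stab2 are also on the endothelial list. The ligand Spp1, osteopontin, had 112, 114 and 81.04 CPM in the controls and 81.99, 69.4, 97.2 and 139.9 CPM in the knockouts, where the highest and the lowest old livers were both knockouts. Ezr, Msn and Rdx, whose products link CD44 to actin, were at -0.45, -0.53 and -0.02, with SEs of 0.30, 0.33 and 0.12. Met, the hepatocyte growth factor receptor with which CD44 can act, was at 0.08 (SE 0.13). The list median was 0.01 without old control replicate 2.

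T cell genes showed no difference that exceeded the spread of the controls. Of 22 genes of T and NK cells, 14 had a positive log2 fold change, the median was 0.08 and 0 reached an unadjusted p under 0.05. The median member stood at -0.11, 0.92 and -0.79 in the controls and between 0.11 and 0.51 in the knockouts. Cd8a, the CD8 alpha chain, had 1.43, 5.74 and 0.763 CPM in the controls and 2.905, 4.799, 1.696 and 1.75 CPM in the knockouts. Without old control replicate 2 the list median was 0.78 and 8 genes were higher at p under 0.05 (1.84% of all genes). Without replicate 3 the median was -0.11. Of 10 effector genes 1, Ccl5, was higher at p under 0.05, and of 7 exhaustion genes 0 were, with Pdcd1 at -0.41, Havcr2 at -0.71, Tox at -0.18 and Lag3 at -0.18. B cell and plasma cell genes had 11 of 12 members above 0 and a median of 0.44. Only 1 of the 12, Ms4a1, reached an unadjusted p under 0.05 (2.57% of all genes were higher). In Pax5 and Fcer2a the highest old liver was old control replicate 1. Ms4a1 (chromosome 19, 11249679 to 11266149), the B cell surface protein CD20, had 0.541, 0.593 and 0.477 CPM in the controls and 1.34, 1.44, 1.18 and 1.17 CPM in the knockouts, without overlap (log2 fold change 1.24, SE 0.34). The young controls had 0.245, 0.066 and 0.0634 CPM, of which replicates 2 and 3 lay under the floor of 3 counts. Cd79a was at 0.64 (SE 0.44). Without old control replicate 3, the lowest control for this list, its median was -0.08.

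**Figure D5:**
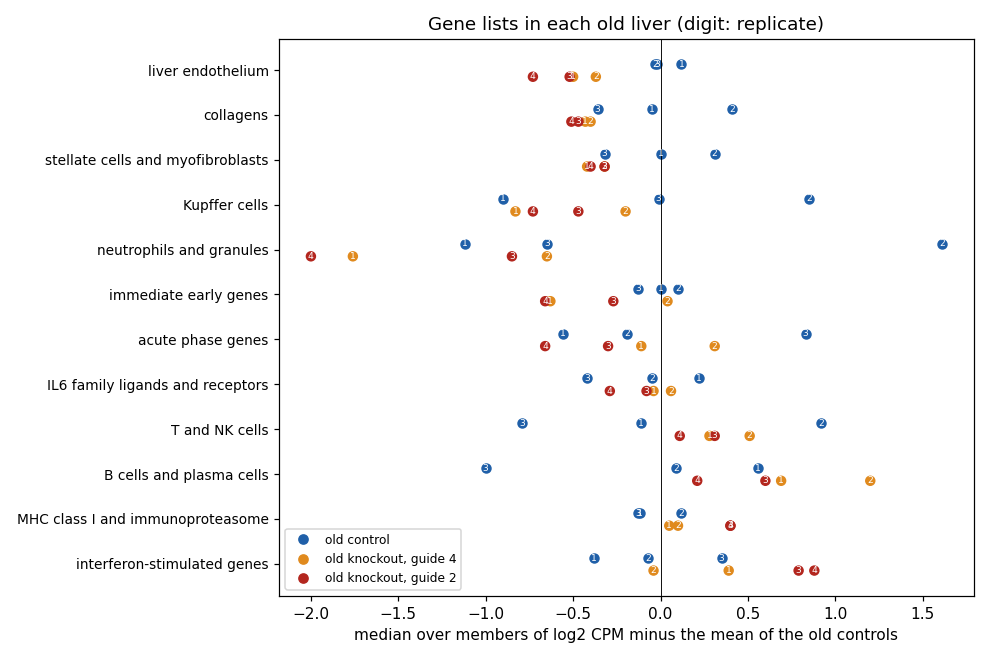
Median over the members of 12 gene lists (rows) of log2 CPM minus the mean of the old controls (x axis) in each old liver, with the replicate number in each point. The 4 knockout livers lie below the 3 controls for the endothelial list, and the controls span from -1.12 to 1.61 for the neutrophil list.

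Within hepatocyte metabolism, 21 genes of glucose handling were followed. Of these, 3 were higher (2.57% of all genes) and 2 lower (4.02%) at an unadjusted p under 0.05, with a median of 0.10. Pklr (chromosome 3, 89136122 to 89146815), the liver pyruvate kinase of glycolysis, had 232, 299.6 and 223 CPM in the controls and 393, 473, 337 and 399 CPM in the knockouts. G6pc (chromosome 11, 101367716 to 101377903), the phosphatase that releases glucose from the liver, had 103, 148 and 197 CPM and 225, 292, 223 and 330.2 CPM. In both genes all knockouts lay above all controls, with log2 fold changes of 0.67 (SE 0.16) and 0.84 (SE 0.23). Hcn3 (chromosome 3, 89146775 to 89160284), a channel gene whose end overlaps that of Pklr, had 15.9, 12.4 and 4.91 CPM in the controls and 17.6, 74.8, 17.3 and 42.95 CPM in the knockouts (log2 fold change 1.79, SE 0.54), and reads of the shared stretch cannot be told apart where strand is not used. The insulin receptor substrates lay on opposite sides, with Irs1 at 0.39 (SE 0.13) and Irs2 at -1.28 (SE 0.50). Irs2 had 2.75, 3.78 and 11.3 CPM in the controls and 1.92, 2.36, 3.67 and 1.75 CPM in the knockouts, and Igfbp1, a binding protein of insulin-like growth factors that insulin represses, 27.9, 19.01 and 95.8 CPM and 6.57, 17.2, 35.5 and 12.02 CPM. Old control replicate 3 was the highest liver for both. Pck1, the gluconeogenic carboxykinase, was at 0.10 (SE 0.21).

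Synthesis of fatty acids and cholesterol was examined as 1 list. Of 29 genes of lipogenesis and cholesterol synthesis, 8 were lower (4.02% of all genes) and 2 higher (2.57%) at an unadjusted p under 0.05. The list median was -0.11. The lower genes named here act in cholesterol synthesis or its control, a division of the list that was made after their values were seen. Fdft1 (chromosome 14, 63145150 to 63181687), squalene synthase, had 235, 271 and 279.9 CPM in the controls and 213, 186, 209 and 198 CPM in the knockouts, without overlap (log2 fold change -0.38, SE 0.14). Srebf2, the transcription factor of the pathway, was at -0.56 (SE 0.21), and Mvk, Hmgcs1, Lss, Idi1 and Fdps at -0.63, -0.52, -0.38, -1.32 and -0.42. The 2 higher genes were Me1, the malic enzyme that supplies NADPH, at 0.52 (SE 0.18) and Thrsp, an inducer of lipogenesis, at 0.87 (SE 0.32). Scd1, Fasn and Acaca were at 0.62, 0.17 and -0.03, with SEs of 0.30, 0.23 and 0.15. Without old control replicate 3, 1 gene of the list was lower at p under 0.05 (7.17% of all genes). Without replicate 1, 12 were, where 9.63% of all genes were lower. Cidec, a protein of large lipid droplets, had 20.5, 12.99 and 8.299 CPM in the controls, 55.2 and 41.8 CPM in the guide 4 livers and 29.1 and 12.2 CPM in the guide 2 livers (log2 fold change 1.31, SE 0.48), and was alone among 27 lipid droplet and lipoprotein genes in reaching p under 0.05.

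Among 27 drug-metabolising P450 genes, 3 were higher (2.57% of all genes) and 0 lower at an unadjusted p under 0.05, with a median of -0.02. Cyp2a4 (chromosome 7, 26307192 to 26315088), a steroid hydroxylase, had 23.7, 37.8 and 40.1 CPM in the controls, 19.3 and 32.3 CPM in the guide 4 livers and 293 and 199.6 CPM in the guide 2 livers. Its near-identical neighbour Cyp2a5 was at 1.74 with guide 2 and -0.46 with guide 4, and reads may be divided wrongly between them. Cyp2b10 and Cyp4a12a were at 1.42 (SE 0.57) and 0.93 (SE 0.35). Of 27 conjugation genes and targets of the factor NRF2, 3 were higher (2.57% of all genes) and 1 lower (4.02%) at p under 0.05. The glutathione transferase gene Gsta1 (chromosome 9, 78230669 to 78242683) had 38.4, 32.5 and 50.4 CPM in the controls, 51.2 and 51.7 CPM in the guide 4 livers and 199 and 153 CPM in the guide 2 livers, and its close copy Gsta2 had 41.04, 33.8 and 49.6 CPM, 48.9 and 52.4 CPM and 125 and 104 CPM. The guide 2 livers were the highest in both. The difference between guides was 1.77 for Gsta1 (edgeR adjusted p = 0.281) and 1.17 for Gsta2 (edgeR adjusted p = 0.621). Nqo1 and Gclc, other targets of NRF2, were at 0.57 and 0.12, with SEs of 0.37 and 0.24.

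Pericentral hepatocytes respond to Wnt signals from the central vein. Of 18 of their genes, 16 had a negative log2 fold change and the median was -0.26. At an unadjusted p under 0.05, 3 were lower (4.02% of all genes). Glul, glutamine synthetase, had 968, 1091 and 1946 CPM in the controls and 658, 976, 827 and 798 CPM in the knockouts, of which replicate 2 overlapped the lowest control (log2 fold change -0.71, SE 0.23). Slc1a2, a glutamate transporter, was at -0.80 (SE 0.29), Lgr5 at -0.57 (SE 0.31) and Axin2 at -0.18 (SE 0.25). Old control replicate 3 stood at 0.36 for the median member, above all other old livers. Without it the list median was -0.05 and 1 gene was lower at p under 0.05 (7.17% of all genes). Periportal and urea cycle genes had a median of 0.09 with 0 of 21 at p under 0.05. Among 20 clock genes, 3 were higher at an unadjusted p under 0.05 (2.57% of all genes). They included Bhlhe40 at 0.53 (SE 0.21) and Hlf at 0.29 (SE 0.13). Only 1 was lower (4.02% of all genes), Nr1d1 at -0.42 (SE 0.16).

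Of 22 p53 target and senescence genes, 4 were higher (2.57% of all genes) and 0 lower at an unadjusted p under 0.05. The list median was 0.13. Eda2r, a receptor of the tumour necrosis factor family that p53 induces, had 2.802, 2.14 and 1.76 CPM in the controls and 3.31, 4.71, 5.04 and 3.33 CPM in the knockouts, without overlap (log2 fold change 0.88, SE 0.24). Ccng1, Zmat3 and Trp53inp1 were at 0.33, 0.31 and 0.42, with SEs of 0.12, 0.12 and 0.19. Mdm2 and Cdkn1a, the classical targets, were at 0.31 (SE 0.22) and 0.38 (SE 0.25). Leaving out old control replicate 3 gave 2 higher and 3 lower members of this list, where 4.17% of all genes were higher and 7.17% lower. Of 26 genes of the unfolded protein response, 1 reached p under 0.05, Asns, which encodes asparagine synthetase. It had 3.69, 1.32 and 2.003 CPM in the controls and 1.05, 0.654, 0.235 and 0.233 CPM in the knockouts, all lower, at a level close to the floor of 3 counts with guide 2 (log2 fold change -2.1, SE 0.58). Of 16 iron genes 1 reached p under 0.05, Tfrc, the transferrin receptor, with 18.6, 21.7 and 17.1 CPM in the controls and 30.9, 27.8, 20.2 and 25.8 CPM in the knockouts (log2 fold change 0.45, SE 0.15). Hamp, which encodes hepcidin, was at -0.30 (SE 0.25). Lists of the respiratory chain (median 0.13), cytosolic ribosomal proteins (0.08), the proteasome (0.12), heat shock chaperones (0.07) and the cell cycle (-0.29) had 0 members at p under 0.05 in either direction. For 4 of these lists the count depended on old control replicate 1: without it 13 of 24 respiratory chain, 6 of 21 ribosomal and 5 of 23 proteasome genes were higher, where 8.37% of all genes were, and 11 of 25 cell cycle genes were lower, where 9.63% of all genes were. The cell cycle median was 0.15 without old control replicate 2. For ribosomal proteins the median was -0.06 without replicate 3, and for heat shock chaperones it was -0.02 without replicate 1 and -0.09 without knockout replicate 1.

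The guides were compared last. Against the same 3 controls, guide 2 gave 405 genes higher and 574 lower at an unadjusted p under 0.05, and guide 4 gave 254 and 290. By edgeR's adjusted p, guide 2 called 3 genes (0.0216% of those tested), Spats2l, Cyp2a4 and Ly6d, and guide 4 called 0. DESeq2 called 107 genes for guide 2 and 1 for guide 4, and limma voom called 10 for guide 2. In the direct comparison of guide 2 with guide 4, 3 genes (0.0216%) had an edgeR adjusted p under 0.05, Cyp2a4, Cyp2a5 and Spats2l. Spats2l (chromosome 1, 57774102 to 57948398) had 2.02, 2.19 and 2.77 CPM in the controls, 1.801 and 1.396 CPM in the guide 4 livers and 9.42 and 9.98 CPM in the guide 2 livers. It differed between guides by 2.6 (SE 0.29), Cyp2a4 by 3.25 (SE 0.36) and Cyp2a5 by 2.21 (SE 0.26), with edgeR adjusted p-values of 0.0275, 0.0275 and 0.0332. Ly6d was higher with both guides, by 2.97 (edgeR adjusted p = 0.0359) with guide 2 and 1.28 (edgeR adjusted p = 0.98) with guide 4. Flt4, Pklr and Egr1 had values of -0.69, 0.55 and -1.78 with guide 2 and -0.58, 0.78 and -2.3 with guide 4. With 2 livers per guide, a difference between guides and a difference between pairs of mice cannot be told apart.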

How the data were processed

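Polyadenylated RNA of 10 whole livers was sequenced from both fragment ends, 75 bases each, with the Element AVITI, per the labels' protocols. Raw read counts per gene symbol, deposited without normalization, form 1 table in which each liver has a column. The submitters' processing notes name FastQC 0.11.8, Trim Galore 0.4.4, STAR 2.5.3a, HOMER and the build mm10, and the use of strand is not given in the sources used here. Of 24537 symbols, 5807 had no count in any library. Symbols were matched to RefSeq GRCm38.p6, the same build, which gave positions for 119 of 121 genes selected for description.

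The counts were tested with edgeR 4.0.16 in R 4.3.3 by the quasi-likelihood test on all 10 libraries (1 coefficient for each group), TMM factors and filterByExpr (minimum count 10, minimum total 15), which kept 13909 genes. Adjusted p-values are Benjamini-Hochberg values over all of them. The prior degrees of freedom were 4.2 and the biological coefficient of variation 21.8%. A second fit gave each guide a coefficient of its own. CPM values use TMM factors. Levels by list are medians over members of log2 CPM with a prior count of 2, minus the mean of the old controls. No 2 livers of a group agreed within counting noise (chi-square at least 20.3 times its degrees of freedom), so each liver was 1 replicate. Depth limits cover counting error only. Alternatives were DESeq2 1.42.0, limma 3.58.1 with voom, other size factors, other filters, old libraries only, a robust fit and leaving out each old liver. The steps were tested on simulated data.

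The 43 gene lists hold 921 entries for 882 genes, of which 10 matched no symbol and 837 were tested. The libraries, the lists and the genes named were chosen with earlier results of these data known, so counts over lists carry no test of their own. Named genes were 9 set by symbol; in each direction the 12 of smallest unadjusted p and the 5 of largest fold change at p under 0.05, with a mean of at least 1 CPM in the higher group and no overlap; up to 4 members of smallest p per list; cell type markers; and genes called in any fit. Members named beside these were chosen for their role in the pathway. Guide sequences are not used here, and some genes are not reported here.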

Additional observations from a re-analysis of the deposited data

Results flagged for a closer look

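Among the knockout livers, a single liver far from the other 3 was found in 7 of 164 results tested. The measure was Dixon's ratio of the gap to the nearest liver over the whole range, and chance alone gives about 1 in 20, or 8.2. The 3 old controls were not examined in this way, so these numbers say nothing of them. Old control replicate 2 stood far from the other controls for neutrophil genes such as Ngp, at 63 CPM against 0.541 and 0.572 CPM. Egr1 was lowest in knockout replicate 1, with a ratio of 0.905, and Pf4, the platelet chemokine, was highest in knockout replicate 2 at 0.875. C3 was lowest in knockout replicate 4 (0.975), Slc1a2 highest in knockout replicate 2 (0.959) and Sycp3 highest in knockout replicate 4 (0.859). Among lists, fatty acid oxidation and ketogenesis was lowest in knockout replicate 4, the liver at -0.33 against 0.14 to 0.21 in the other knockouts (ratio 0.86). Heat shock chaperones were highest in knockout replicate 1, at 0.64 against -0.11 to -0.03 (ratio 0.896). The same liver stood at 0.80 for the unfolded protein response, against -0.18 to 0.07 in the other knockouts.

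The log2 fold change differed between guides in a direct edgeR test for 3 genes with an adjusted p under 0.05, Cyp2a4 by 3.25, Spats2l by 2.60 and Cyp2a5 by 2.21. Each was higher in both guide 2 livers than in both guide 4 livers. Whether a guide or the pair of mice underlies the difference was not tested.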

How the results depend on the processing

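No paired analysis was possible because the replicate numbers follow the record order and mark no shared mouse, litter or day. The number of genes called was 0 in edgeR, 8 with DESeq2 and 0 with the other alternatives that keep all livers, and 0 to 3 when 1 liver was left out. Genes at an unadjusted p under 0.05 numbered 916, of which 137 passed a 2-fold minimum, and 506 to 2539 with 1 liver left out. Guide 2 called 3 genes, 107 with DESeq2, 10 with limma voom, 6 with the old libraries only and 1 to 3 with a control left out, and guide 4 called 0, 1 with DESeq2 and 0 to 0 with a control left out.

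With 1 liver left out, lower members at p under 0.05 ranged from 14 to 21 for endothelium, 0 to 14 for Kupffer cells, 0 to 11 for neutrophils, 3 to 9 for immediate early genes and 1 to 12 for lipogenesis, and higher members from 3 to 19 for interferon-stimulated genes and 0 to 5 for MHC class I. The shares of all genes moved in the same fits. Lower genes ran from 316 of 13838 tested without knockout replicate 4 to 9.63% without old control replicate 1. Higher genes ran from 1.37% to 8.37% in the same 2 fits. The upper ends for Kupffer cells and neutrophils came without old control replicate 1. Limma voom gave 4 Kupffer, 0 neutrophil and 9 interferon-stimulated genes. For neutrophils DESeq2 gave 1, no filter 11 and a minimum of 1 CPM 2. MHC class I gave 2 with RLE size factors and 2 with the old libraries only. These counts over lists were chosen after seeing the data. The cause of each shift was not tested.

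Of 121 genes selected for description, 13 changed sign in at least 1 of 15 alternatives, in 21 of 1809 values. Gt(ROSA)26Sor was at 0.05 with limma voom. With a liver left out the ranges were -0.32 to 0.33 for Gt(ROSA)26Sor, -0.65 to 0.15 for Stat3, -0.70 to 0.34 for Socs3, -1.87 to 0.02 for Saa1, -0.30 to 0.06 for Spp1, -0.36 to 1.35 for Cd8a, -1.70 to 0.09 for Timd4, -2.65 to 0.40 for Trem2, -4.71 to 0.40 for Mpo, -5.53 to 0.96 for Ngp, -3.36 to 1.05 for Pf4, -1.04 to 0.01 for C3 and -1.70 to 0.13 for Vcam1. Of 43 lists, 21 had a median that changed sign at least once, in 39 of 645 values. Genes near or under 3 counts per library, such as Asns with guide 2 and Mmrn1 in knockout replicate 1, are limited by depth.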
